A study of Mus musculus with 34 samples.

Results

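Nos2, Gatm, Oat, Ckm and Ckmt2 are 5 genes through which arginine can be turned into nitric oxide, ornithine products or creatine, or through which creatine is used. They were selected by name: a probe was kept where its only annotated gene symbol was one of the 5, in both deposited tables. Of each table, 10 of the 812 probes with a single gene symbol met this rule, among 1200 probes in all, and they covered 5 of the 637 named genes of the untreated table and 5 of the 638 of the L-arginine table. Nos2 and Oat had 1 probe each, Gatm and Ckm 2 each and Ckmt2 4.

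Arginine is the shared substrate of these routes. Nitric oxide synthases oxidise it to citrulline and nitric oxide; Nos2 encodes the inducible form, best known from activated macrophages, whereas muscle fibres mainly use the neuronal form, which is bound to the dystrophin complex. Gatm (glycine amidinotransferase) moves the amidino group of arginine to glycine, the first step of creatine synthesis. Oat (ornithine aminotransferase) is a mitochondrial enzyme that links ornithine, the product of arginase, to glutamate and proline. Ckm, the cytosolic muscle creatine kinase, and Ckmt2, the sarcomeric mitochondrial creatine kinase, transfer phosphate between ATP and creatine near the myofibrils and at the mitochondrial membrane. The mdx mouse lacks full-length dystrophin and is the usual mouse model of Duchenne muscular dystrophy; BL10 is its background strain. L-arginine has been studied in mdx mice as a substrate for nitric oxide synthesis.

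The study measured total RNA of diaphragm and hindlimb muscle on 34 2-colour arrays in 8 groups: BL10 or mdx mice, diaphragm or hindlimb, untreated or given L-arginine. Each group held 1 array at each of 3, 5, 9 and 12 weeks of age, and both untreated mdx groups had a second array at 12 weeks, so that those groups had 5 arrays and the others 4. Dose, route and length of the L-arginine treatment, the particular hindlimb muscle and the number of animals behind an array were not given in the labels. Nothing in the labels tells whether each array is an animal of its own, so a p-value here covers the scatter of the arrays, which may be technical.

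The deposited value of a probe was a ratio of the 2 channels of an array, analysed on the log2 scale. One channel was labelled with the strain at 12 weeks and the other with the strain at the named age, and the ratio was read as the named age over the 12-week RNA. That direction is likely from the labels and not stated; turned, every sign below turns with it. A difference between mdx and BL10 is thus a difference between 2 ratios, each relative to a 12-week RNA of its own strain, and not a difference in RNA level. Whether the 12-week RNA of the treated arrays came from treated mice is not stated, and on the 12-week arrays both channels bore the same label. The 9-week array of L-arginine-treated BL10 hindlimb named mdx in both channel labels, against its title; it was kept as labelled in the title, and the differences between treated groups that include it are given without it too. The labelled tissue could not be checked against marker levels, since a ratio carries no level. A lower ratio may come from fewer cells of a type or from less RNA per cell, which cannot be told apart in whole muscle.

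The tables differed in quality. Ratios of 0 or below, which have no logarithm and were left missing, numbered 0 to 225 of 1200 per untreated array and 2 to 36 per L-arginine array; the 3 untreated arrays with most were BL10 diaphragm at 3 weeks (168), BL10 hindlimb at 3 weeks (225) and BL10 hindlimb at 12 weeks (128). The median ratio of an array lay between 0.73 and 1.08 in the untreated table and between 0.94 and 1.22 in the L-arginine table. The lowest Pearson correlation over all features between 2 arrays of one strain label was -0.19 in the untreated table and -0.08 in the L-arginine table, and between arrays of different strains it was -0.41 and -0.10.

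The 5 genes differed in how far their ratios moved over the arrays. Nos2 was the most variable, with an SD of 0.67 over 16 untreated arrays and 0.80 over 15 L-arginine arrays; 70.8% and 86.4% of the features tested had a lower SD. Ckm and Ckmt2 were among the steadier features: their SDs were 0.36 and 0.32 in the untreated table and 0.26 for each in the L-arginine table, and no array put either gene more than 2-fold from its reference. Gatm had an SD of 0.59 untreated and 0.19 with L-arginine, where 4.81% of features were lower. Oat had the opposite order, 0.26 untreated (3.75% of features lower) and 0.40 with L-arginine (49.6% lower). The median SD of all features was 0.52 and 0.40. Gatm, Ckm and Ckmt2 are means of several probes, and averaging by itself lowers an SD. Most features, like Nos2 and Oat, are single probes, and the SDs were not adjusted for this.

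**Figure D1:**
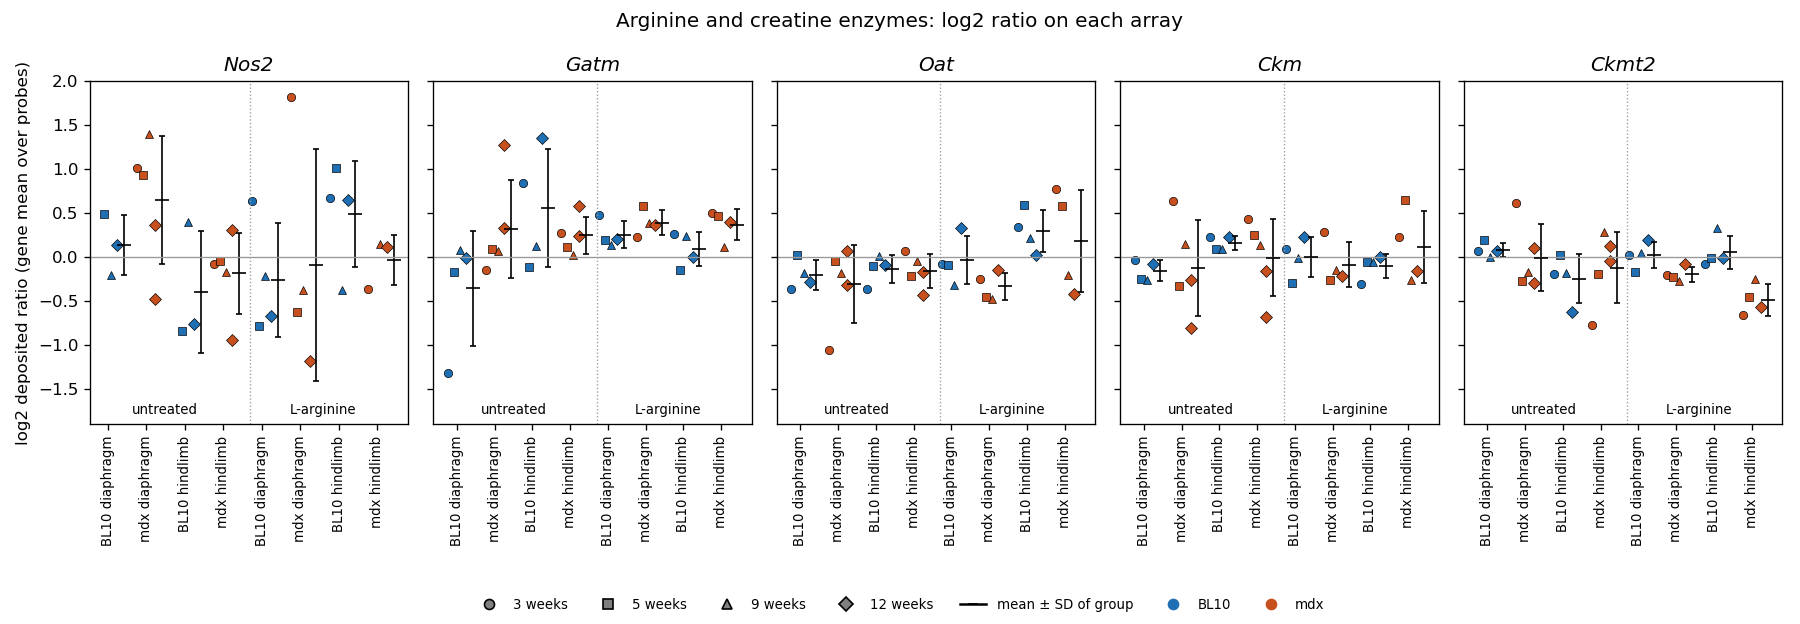
Log2 ratio of each of the 5 genes (vertical axis) in the 8 groups (horizontal axis), with 1 point per array marked by age in weeks and a bar for the group mean ± SD. Nos2 spreads from -1.18 to 1.82, and Ckmt2 in L-arginine-treated mdx hindlimb lies between -0.66 and -0.24 on all 4 arrays.

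No member passed the test in any of the 16 comparisons made with limma (Benjamini-Hochberg adjusted over all 1014 or 1019 features of a table, threshold 0.05). The comparisons were, in each table, mdx minus BL10 in diaphragm, in hindlimb and over both, the difference between those tissues, hindlimb minus diaphragm, and 3, 5 and 9 minus 12 weeks. The background was low as well. Among untreated arrays, 0% of features were called in 7 comparisons, in which between 26 and 143 features had an unadjusted p under 0.05. For the untreated strains in hindlimb 0.0986% (1 feature) were called, and 117 features had such a p. Among L-arginine arrays, 0.393% were called for the strains in hindlimb (4 features, all higher in mdx), where 177 features had such a p. For the strains over both tissues 1.47% were called (15, all higher), and 120 features had such a p. Between tissues 4.02% were called (41, of which 28 were higher in hindlimb), and 249 of 1019 features had such a p. In the other 5 comparisons 0% were called, with 27 to 95 features under an unadjusted p of 0.05. A count of 0 of 5 members is therefore near the background. The median strain difference of all features was 0.16 in untreated diaphragm and 0.15 in untreated hindlimb, and 0.08 in treated hindlimb, so small positive differences of members in the untreated table lie near the shift of the whole table.

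Nos2, the nitric oxide synthase of the set, had its higher untreated ratios in mdx diaphragm. In untreated mdx diaphragm its log2 ratio was 1.01, 0.93 and 1.40 at 3, 5 and 9 weeks, and 0.37 and -0.47 on the 12-week arrays. In untreated BL10 diaphragm it was 0.49, -0.20 and 0.14 at 5, 9 and 12 weeks, with no value at 3 weeks. The 3 younger mdx arrays were thus above every BL10 array, while the 12-week mdx arrays were not.

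The difference between the strains in untreated diaphragm was 0.54 ± 0.41 (SE; 95% interval -0.34 to 1.42), with mdx at a mean of 0.65 ± 0.73 (SD, n = 5) and BL10 at 0.14 ± 0.34 (SD, n = 3); limma's adjusted p was 0.742. It was 0.99 without the 12-week arrays and 0.14 without the BL10 array at 9 weeks. In untreated hindlimb Nos2 was -0.07, -0.04, -0.17, 0.31 and -0.94 in mdx and -0.84, 0.40 and -0.76 in BL10 at 5, 9 and 12 weeks, ranges that overlapped (difference 0.25 ± 0.41, adjusted p = 0.860).

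In the L-arginine table Nos2 had both signs within each group. Its highest ratio of all, 1.82, was on the treated mdx diaphragm array at 3 weeks, and the later ages of that group gave -0.62, -0.38 and -1.18. Treated BL10 diaphragm also had its only positive value at 3 weeks (0.63, then -0.79, -0.22 and -0.67). In treated hindlimb BL10 was at 0.67, 1.01, -0.38 and 0.65 and mdx at -0.36, 0.15 and 0.11, with the 5-week value missing. The strain differences did not pass the test in either tissue (0.17 ± 0.51 in diaphragm, adjusted p = 0.998; -0.58 ± 0.56 in hindlimb, adjusted p = 0.610 by limma). The hindlimb value ran from -1.47, with ratios of 0 or below set to the lowest positive ratio of the array, to 0.05 without the mdx array at 3 weeks.

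No difference of Nos2 between ages or tissues passed the threshold. Hindlimb minus diaphragm was -0.69 ± 0.28 untreated (unadjusted p = 0.0290, adjusted p = 0.50 by limma) and 0.37 ± 0.38 with L-arginine. The 3-week arrays minus the 12-week arrays were 0.56 ± 0.45 untreated, resting on 2 of the 3-week arrays, and 0.96 ± 0.51 with L-arginine (adjusted p = 0.684 and 0.808). Setting ratios of 0 or below to the lowest positive ratio of their array, in place of missing, turned the untreated value to -2.54.

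Gatm, the enzyme that commits arginine to creatine, was spread widely in the untreated table and narrowly above its reference in the L-arginine table. Untreated BL10 diaphragm had -1.32 at 3 weeks, from 1 of its 2 probes, and -0.17, 0.09 and -0.0074 later. Untreated mdx diaphragm was at -0.15, 0.09, 0.07, 1.27 and 0.33, the 1.27 being one of the 12-week arrays. Untreated BL10 hindlimb was high at 3 and 12 weeks (0.84 and 1.36) and near its reference at 5 and 9 weeks (-0.11 and 0.13), and mdx hindlimb lay between 0.03 and 0.58. The 4 values furthest from the reference were thus on 3 arrays with over 100 missing ratios and on one of the 2 mdx diaphragm arrays at 12 weeks.

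The strain difference of Gatm had opposite signs in the untreated tissues. It was 0.58 ± 0.32 in diaphragm (95% interval -0.10 to 1.26, unadjusted p = 0.0879, adjusted p = 0.602) and -0.40 ± 0.32 in hindlimb (-1.08 to 0.28, adjusted p = 0.662). The difference between those was -0.98 ± 0.45 (unadjusted p = 0.0445, adjusted p = 0.817 by limma). Without the 3-week BL10 diaphragm array the diaphragm difference was 0.27 and the difference between tissues -0.66; without the 3 arrays with over 100 missing ratios the values were 0.34, 0.09 in hindlimb and -0.25, a choice made after the values were seen.

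With L-arginine, Gatm was above 0 on 15 of 16 arrays. Treated mdx diaphragm was at 0.23, 0.58, 0.39 and 0.37, treated mdx hindlimb at 0.50, 0.47, 0.11 and 0.39. Treated BL10 diaphragm was at 0.48, 0.20, 0.14 and 0.20, and treated BL10 hindlimb at 0.27, -0.15, 0.24 and 0.0070. The strains overlapped in both tissues, with differences of 0.14 ± 0.16 (-0.20 to 0.48) and 0.28 ± 0.16 (-0.06 to 0.62, adjusted p = 0.364 by limma). The 2 probes differed in level, and in diaphragm also in the order of the strains. Probe 1 averaged 0.66 in mdx and 0.33 in BL10 diaphragm, and 0.58 and 0.20 in hindlimb. Probe 2 averaged 0.13 in mdx and 0.18 in BL10 diaphragm, and 0.16 and -0.01 in hindlimb.

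By age, untreated Gatm ratios were lower on the arrays of 3, 5 and 9 weeks than on the 12-week arrays, by -0.70 ± 0.31, -0.63 ± 0.31 and -0.53 ± 0.31. In limma the unadjusted p was 0.0372, 0.0583 and 0.102 and the adjusted p 0.577, 0.930 and 0.931. The mean ratios were -0.09, -0.02 and 0.08 at 3, 5 and 9 weeks, near the 12-week reference, and 0.63 on the 12-week arrays. The differences thus come mainly from 12-week arrays lying above 0, and are not shown to be changes with age. The 12-week arrays, where both channels bear the same label, themselves ran from -0.0074 to 1.36, with an SD of 0.57 against 0.49 for the other ages. In the L-arginine table the same age differences were 0.13, 0.03 and -0.02.

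Oat, the ornithine enzyme, stayed near or below its reference in untreated muscle. Untreated mdx diaphragm had its one low array at 3 weeks, -1.06, followed by -0.04, -0.18, -0.32 and 0.07. Untreated BL10 diaphragm was at -0.36, 0.03, -0.18 and -0.29. In untreated hindlimb BL10 lay between -0.36 and 0.01 and mdx between -0.43 and 0.07. The ranges overlapped in both tissues, and the strain differences were -0.11 ± 0.23 (95% interval -0.59 to 0.37) and -0.03 ± 0.23 (-0.51 to 0.46).

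With L-arginine, Oat separated more by tissue than by strain. Treated mdx diaphragm was below 0 at all 4 ages (-0.25, -0.45, -0.47 and -0.15), and treated BL10 diaphragm was at -0.07, -0.09, -0.32 and 0.33. Treated BL10 hindlimb was above 0 at all 4 ages (0.34, 0.59, 0.21 and 0.03). Treated mdx hindlimb went from 0.77 and 0.58 at 3 and 5 weeks to -0.20 and -0.42 at 9 and 12 weeks.

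Hindlimb minus diaphragm of Oat was 0.43 ± 0.17 (95% interval 0.05 to 0.80, unadjusted p = 0.0284), which did not pass after adjustment (limma, adjusted p = 0.151). By p it ranked 192 of 1019 features. The difference was 0.12 once a trend along the table order of the probes was removed. The median of all features in that comparison was 0.13. In diaphragm the treated mdx array was below the BL10 array of the same age at 4 of 4 ages, by -0.18, -0.36, -0.15 and -0.49, while the fitted difference was -0.29 ± 0.24 (adjusted p = 0.998 by limma) and the BL10 and mdx ranges overlapped.

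Ckm, the creatine kinase of the cytosol and M band, moved little. Untreated BL10 diaphragm was at -0.03, -0.25, -0.26 and -0.07 and BL10 hindlimb at 0.23, 0.09, 0.09 and 0.23, with SDs of 0.12 and 0.08. These are means of 2 probes, whose own SDs were 0.32 and 0.11 in BL10 diaphragm and 0.75 and 0.54 in mdx diaphragm. Untreated mdx muscle was broader in both tissues, at 0.64, -0.33, 0.15, -0.80 and -0.26 in diaphragm and 0.43, 0.25, 0.13, -0.68 and -0.16 in hindlimb. Its lowest values there, -0.80 and -0.68, both came from 12-week arrays, with the 2 probes of the diaphragm array at -1.51 and -0.09.

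Strain differences of Ckm in untreated muscle were 0.09 ± 0.25 (95% interval -0.43 to 0.61) and -0.11 ± 0.25 (-0.63 to 0.42), and in treated muscle -0.09 ± 0.22 and 0.22 ± 0.22 (-0.26 to 0.69). These intervals allow differences of up to 1.62-fold in treated hindlimb and 1.55-fold in untreated hindlimb. Treated BL10 hindlimb ran from -0.31 to 0.00029 and treated mdx hindlimb from -0.26 to 0.64. The untreated Ckm ratio was higher on the 3-week than on the 12-week arrays by 0.61 ± 0.24 (unadjusted p = 0.0216, adjusted p = 0.532 by limma), which did not pass the threshold. The 3-week arrays averaged 0.32, and the 12-week arrays, with the same label in both channels, averaged -0.29. With L-arginine the difference was 0.11 ± 0.22.

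Ckmt2, the mitochondrial creatine kinase, was the one member whose mdx and BL10 arrays did not overlap within a table, in treated hindlimb. Of all features, 5.56% did not overlap in that comparison, 5.01% in treated diaphragm, and 3.09% and 3.52% in untreated diaphragm and hindlimb. In L-arginine-treated mdx hindlimb its log2 ratio was -0.66, -0.46, -0.24 and -0.57 at 3, 5, 9 and 12 weeks. In treated BL10 hindlimb it was -0.08, -0.01, 0.33 and -0.01. Every mdx array lay below every BL10 array, and at matched ages mdx was lower at 4 of 4 ages, by -0.58, -0.45, -0.58 and -0.56. The last of these is at 12 weeks, where both channels of an array bear the same label, and it was as large as at the other ages; the 4 treated 12-week arrays of Ckmt2 ran from -0.57 to 0.19, with an SD of 0.32 against 0.25 for the other ages.

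The fitted difference was -0.54 ± 0.14 (95% interval -0.85 to -0.23), a ratio 0.687 times that of BL10. Its unadjusted p was 0.00257, rank 23 of 1019, and its limma adjusted p of 0.114 did not pass the threshold. The 9-week BL10 array, at 0.33 the highest of its group, is the one with disagreeing labels; without it the difference was -0.47 (adjusted p = 0.163). Over both tissues the difference was -0.38 ± 0.10 (adjusted p = 0.132).

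In treated diaphragm Ckmt2 was -0.20, -0.22, -0.27 and -0.08 in mdx and 0.02, -0.16, 0.05 and 0.19 in BL10. The mdx array was again the lower at 4 of 4 ages, although the ranges overlapped and the difference was -0.22 ± 0.14 (95% interval -0.53 to 0.09, adjusted p = 0.998). The difference between the tissues, -0.32 ± 0.20, did not pass the test (adjusted p = 0.739 by limma), so the separation is not shown to be particular to hindlimb.

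Without the 9-week BL10 array with disagreeing labels no treated difference of a member passed the test either. Between strains in hindlimb Nos2 was then at -0.90 (adjusted p = 0.449 by limma), Gatm at 0.37 (0.269), Oat at -0.05 (0.947) and Ckm at 0.28 (0.562). Ckmt2 was at -0.34 over both tissues (adjusted p = 0.184), with a difference between tissues of -0.25 (0.699), and Oat at 0.39 between hindlimb and diaphragm (0.201). The values of Nos2 and Oat between strains thus moved by over 1.5 times and kept their sign.

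Untreated Ckmt2 showed no such order. Untreated mdx hindlimb was at -0.77, -0.19, 0.28, -0.04 and 0.13 and BL10 hindlimb at -0.19, 0.03, -0.18 and -0.63. At matched ages mdx was lower at 3 and 5 weeks (-0.58 and -0.22) and higher at 9 and 12 weeks (0.47 and 0.67), and the fitted difference was 0.13 ± 0.27 (95% interval -0.43 to 0.70). In untreated diaphragm BL10 was steady at 0.07, 0.19, -0.0036 and 0.07, while mdx ran from -0.30 to 0.61 (difference -0.08 ± 0.27).

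The 4 probes of Ckmt2 could be read separately. In treated hindlimb all 4 gave a negative strain difference, of -0.23, -0.57, -0.68 and -0.68, with limma adjusted p of 0.588, 0.144, 0.156 and 0.0922. In untreated hindlimb they disagreed in sign: -0.42, 0.32, 0.07 and 0.50. The median range between the probes of Ckmt2 on an array was 0.41 untreated and 0.43 with L-arginine. For Gatm it was 0.29 and 0.40 and for Ckm 0.34 and 0.38.

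**Figure D2:**
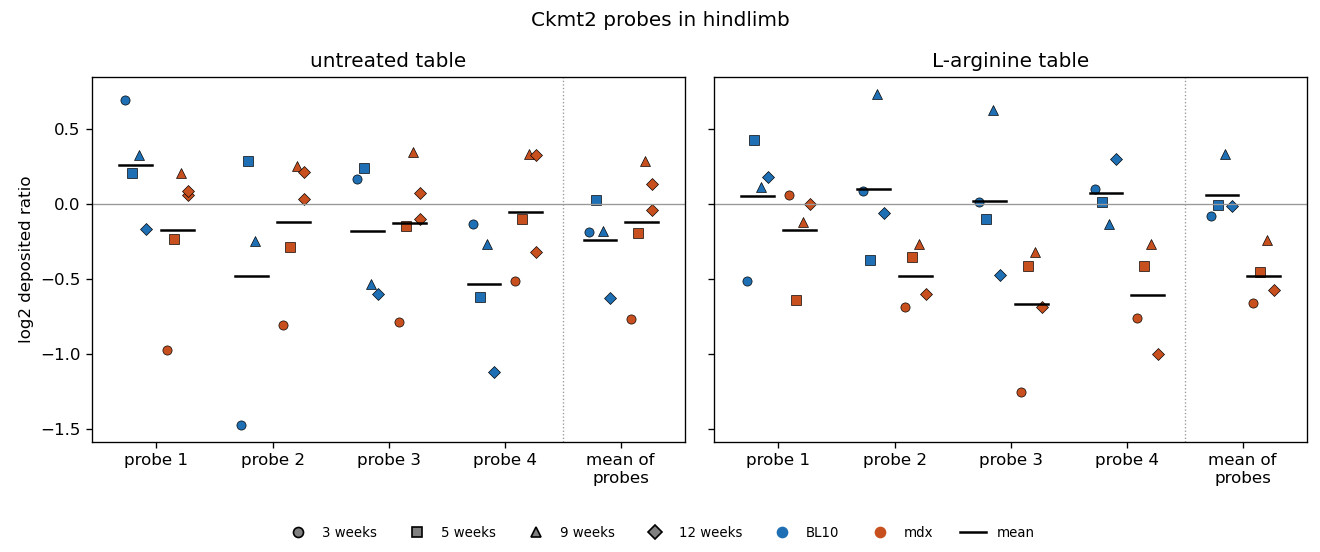
Log2 ratio of the 4 Ckmt2 probes, numbered within each table, and of their mean (vertical axis) in BL10 and mdx hindlimb, untreated and L-arginine-treated; each point is 1 array. In the treated panel the mean of mdx lies at -0.48 and that of BL10 at 0.06, and in the untreated panel at -0.12 and -0.24.

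All measured macrophage and matrix markers were higher in mdx in the treated hindlimb arrays where Ckmt2 was lower. Among them limma called Lyz2 alone in that tissue. The 3 measured macrophage markers of 21 listed (Lyz2, C1qb and Cd68) had array means of 1.07 to 1.22 in mdx and -0.42 to 0.37 in BL10, and of 0.88 to 1.23 and 0.05 to 0.73 in diaphragm. Lyz2, which encodes a lysozyme of macrophages, was higher in mdx hindlimb by 1.97 ± 0.28 (limma, adjusted p = 0.00699). The 4 calls of that comparison became 0 with quantile normalisation and with arrays centred and scaled. The 4 matrix markers of 12 listed (Bgn, Col1a2, Fmod and Postn) were at 1.03 to 1.91 in mdx hindlimb and 0.59 to 1.29 in BL10, ranges that overlapped. Over both tissues limma also called C1qb (0.73, adjusted p = 0.0277), Bgn (0.76, adjusted p = 0.0409) and Postn (1.16, adjusted p = 0.0313) higher in mdx. The part of these markers in the Ckmt2 difference was not tested.

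In treated hindlimb the muscle fibre markers, taken over each list, were not lower in mdx, but single markers went both ways. The strain difference was above 0 for 5 of the 8 fast and 3 of the 4 slow markers measured. The slow marker that was lower in mdx was Mb, described below. In treated hindlimb the 8 fast fibre markers of 11 listed had array means of 0.03 to 0.40 in mdx and -0.12 to 0.16 in BL10. The 4 slow fibre markers of 9 listed were at 0.13 to 0.41 and -0.26 to 0.31. The 2 adipocyte markers of 10 were at -0.54 to 0.46 and -0.33 to 0.05, and Pecam1, the 1 endothelial marker of 10, at -0.58 to -0.20 and -0.22 to 3.40. No gene of the fibre, adipocyte or endothelial lists was called between strains in that tissue.

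**Figure D3:**
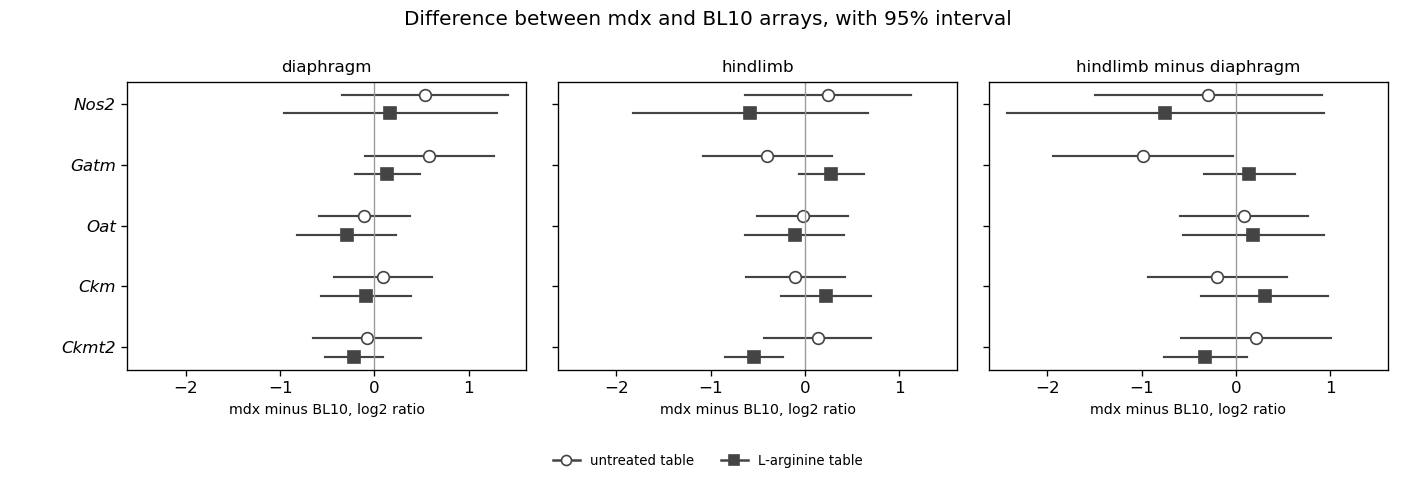
Difference mdx minus BL10 in log2 ratio (horizontal axis) for each gene in diaphragm, in hindlimb and between these tissues, in both tables; points are limma estimates and bars 95% intervals. In treated hindlimb the interval of Ckmt2, -0.85 to -0.23, lies below 0, and its adjusted p is 0.114.

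**Figure D4:**
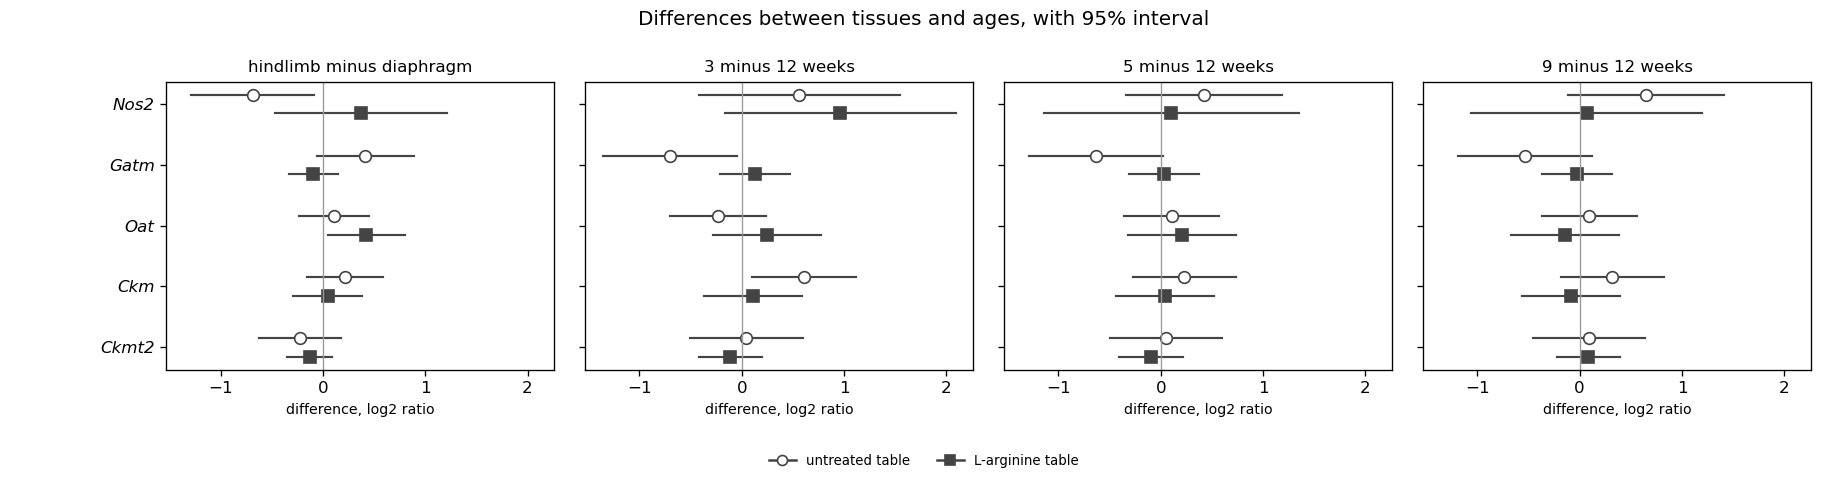
Differences in log2 ratio (horizontal axis) of each gene between hindlimb and diaphragm and between 3, 5 or 9 and 12 weeks, in both tables; points are limma estimates and bars 95% intervals. Nos2 (-0.69) between untreated tissues, Oat (0.43) between treated tissues, and Gatm (-0.70) and Ckm (0.61) between 3 and 12 weeks untreated have intervals off 0, with adjusted p from 0.151 to 0.577.

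Group means ranked differently for each gene and table, and most neighbours in the order were close. Of 30 pairs of neighbouring group means (5 genes, 2 tables), 5 were further apart than their pooled SD and in all 30 the arrays of the neighbours overlapped. In the L-arginine table Ckmt2 ran from 0.06 ± 0.19 in BL10 hindlimb and 0.02 ± 0.15 in BL10 diaphragm, which did not differ beyond their spread, to -0.19 ± 0.08 in mdx diaphragm and -0.48 ± 0.18 in mdx hindlimb (SD, n = 4 each). Its last 3 groups were each apart from the next by more than the pooled SD.

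The other pairs apart by more than their SD were in single places. Untreated Gatm was lowest in BL10 diaphragm (-0.35 ± 0.65) below mdx hindlimb (0.25 ± 0.21), mdx diaphragm (0.32 ± 0.56) and BL10 hindlimb (0.55 ± 0.67). With L-arginine Oat was lowest in mdx diaphragm (-0.33 ± 0.16) and Nos2 highest in BL10 hindlimb (0.49 ± 0.60). The remaining neighbours, including all 3 pairs of Oat, Ckm and Ckmt2 in the untreated table, did not differ beyond their spread.

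Non-overlap of the strains was also read against its background. Among untreated arrays, 0 of 5 members had mdx and BL10 arrays that did not overlap in diaphragm or hindlimb, where 3.09% and 3.52% of all features did. In the L-arginine table it was 0 of 5 in diaphragm (5.01% of features) and 1 of 5, Ckmt2, in hindlimb (5.56%).

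Treated and untreated arrays were of different platforms and tables, so the effect of L-arginine and of the table cannot be told apart, and no test was made across them. Set side by side, 3 of 20 pairs of gene and group had arrays that did not overlap, all of them in BL10. Gatm in BL10 diaphragm was 0.61 higher in the L-arginine table (background 10.9% of genes). In BL10 hindlimb Oat was 0.43 higher and Ckm -0.26 lower (background 8.36%). Without the 9-week BL10 hindlimb array with disagreeing labels 4 pairs were apart, with Oat 0.46 higher and Ckm -0.28 lower. The added pair was Nos2 in BL10 hindlimb, 1.17 higher. Fewer arrays overlap less easily, and no share of all genes was computed without that array. In mdx muscle no member was apart, against 4.75% of genes in diaphragm and 10.2% in hindlimb.

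The mean of Ckmt2 in mdx hindlimb was -0.12 ± 0.41 (SD, n = 5) untreated and -0.48 ± 0.18 (SD, n = 4) with L-arginine, a difference of -0.37 with overlapping arrays. In BL10 hindlimb it was -0.24 ± 0.28 and 0.06 ± 0.19 (SD, n = 4 each), 0.30 the other way. The medians of all 632 genes compared were 0.22 in mdx hindlimb, 0.23 in BL10 hindlimb, 0.05 in BL10 diaphragm and -0.05 in mdx diaphragm.

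Few other genes of these pathways were among the features tested under a single gene symbol. Probes with several symbols or none were not searched for them. Of 84 genes listed, 7 were measured: none of 24 for nitric oxide synthesis and its regulators, 1 of 13 nitric oxide and cyclic GMP targets (Kcnma1), 2 of 32 enzymes and regulators of arginine, ornithine, urea and polyamines (Oaz1 and Got2) and 4 of 15 for creatine and phosphagen handling (Ampd1, Vdac1, Vdac3 and Atp2a1). Arginase, the neuronal and endothelial nitric oxide synthases and the creatine transporter were thus not analysed here. In the 16 comparisons limma called 0 of the 7 genes in either direction, and 6 of 112 tests had an unadjusted p under 0.05.

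Kcnma1, a calcium-activated potassium channel that cyclic GMP signalling can open, had 3 of those 6. It was higher in untreated mdx than BL10 diaphragm by 1.02 ± 0.44 (adjusted p = 0.475 by limma), with means of 0.80 ± 0.91 (SD, n = 4) and -0.24 ± 0.22 (SD, n = 3), and in treated hindlimb than diaphragm by 0.65 ± 0.25 (adjusted p = 0.135). Vdac3, a channel of the outer mitochondrial membrane, differed between untreated strains in hindlimb by 0.59 ± 0.21 (adjusted p = 0.396). Its relative Vdac1 differed between 3 and 12 weeks with L-arginine by -0.67 ± 0.22 (adjusted p = 0.659). None of these passed the threshold.

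The genes most like each member over the arrays were found among 631 named genes by the mean of the Pearson r in each table, over up to 18 untreated and 16 L-arginine arrays; the arrays are shared by all genes and no test was made. Ckmt2 was most like Mb, the oxygen-storing myoglobin of muscle and one of the slow fibre markers above (r = 0.81 untreated and 0.75 with L-arginine), followed by ATP6 and Ambra1 (mean r of 0.63 each). In treated hindlimb Mb averaged -0.72 ± 0.27 in mdx and -0.29 ± 0.21 in BL10 (SD, n = 4 each), a difference of -0.43 ± 0.16 (adjusted p = 0.199 by limma). Mb was picked for its likeness to Ckmt2 over these same arrays, so its difference is not independent of that of Ckmt2. Oat was most like Mcam (r = 0.76 and 0.77).

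The other likenesses were lower. Nos2 was most like Parp12 (mean r of 0.68), Tifa (0.63) and Ift172 (0.62), and Ckm most like Lamb2 (0.62), the glycolytic gene Tpi1 (0.59) and Erbin (0.57). After Mcam, Oat was most like Nfkbib (0.62) and Tnik (0.59). Gatm had the weakest, with Sned1 (0.56), Elp2 (0.52) and Cd53 (0.51), and for Cd53 the r of 0.81 in the untreated table was 0.21 in the L-arginine table.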

How the data were processed

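Expression was measured on 34 2-colour arrays, deposited as 2 value tables, 18 untreated and 16 L-arginine arrays. Each value is, from the values and per the labels of the channels, a linear ratio of the channels of an array, as the authors deposited it; scanner, background correction, normalisation and dyes were not given in the sources used here. Their scale (linear, not log) and centring near 1 were read from the values.

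Ratios above 0 were taken to log2 with no pseudocount. Probes were named through the platform annotation of each table (812 with 1 symbol, 99 with several and 289 not listed), and all 5 members matched RefSeq by gene ID. Probes of a gene were averaged, other probes were kept single, and features with a value on at least 75% of a table's arrays were tested (1014 and 1019). In R 4.3.3, limma 3.58.1 was fitted to each table with group and age as factors, tested on simulated data first; arrays with a missing value left a gene's fit. Figures were drawn with matplotlib 3.10.9 in Python 3.11.15. The members and lists were chosen with earlier results of these data known.

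All members were named; of each pathway list, called genes or, where none was called, at most 4 with the smallest p; and for each member the 3 genes most like it. Alternatives covered scaling, ratios of 0 or below, missing values, several probes, the age term, the 12-week arrays, the array with disagreeing labels, the variance model and each array left out.

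The number of arrays limits the precision; no depth applies.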

Additional observations from a re-analysis of the deposited data

Results flagged for a closer look

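Ckmt2 on the 9-week array of L-arginine-treated BL10 hindlimb was at 0.33 on the log2 scale, far from the other 3 arrays of its group, the nearest of which was at -0.01. Its gap to the nearest array was 0.834 of the range of the group, above Dixon's 95% critical value for 4 arrays. This was 1 of 37 groups of arrays and genes looked at, and chance marks about 1 in 20 groups. It is the array whose channel labels name mdx; the part of the labels in this value was not tested.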

How the results depend on the processing

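No member was called by limma in any of 480 alternative results, each being 1 comparison under 1 setting. One fit gave several of them, and the fits share most of their arrays. Of 2384 alternative differences of members, 2249 kept the sign of the main value, and for 40 of 80 results all alternatives did. The 1 that reversed, each value being larger than its SE, was Nos2 at 3 minus 12 weeks untreated, 0.56 as reported and -2.54 (adjusted p = 0.461) with ratios of 0 or below set to the lowest positive ratio of the array; the same setting gave 2.16 for Nos2 and 1.22 for Gatm between untreated strains in diaphragm. The difference of Ckmt2 in treated hindlimb lay between -0.68 and -0.43 in 30 alternatives, with adjusted p from 0.0810 to 0.382. The single-probe alternative took only the probe with the smallest p, so the Ckmt2 probe with the smallest difference, given above, is outside this range. The 3 pairs apart between tables became 2 with arrays centred or quantile normalised, and 3 to 4 with each array left out. Centring lowered the median strain difference of all features from 0.16 and 0.15 to 0.05 and 0.03 in untreated diaphragm and hindlimb.

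Counts over all features moved more. The 41 calls between treated tissues ranged from 9 (without 12-week arrays) to 70 (centred and scaled), and 10 to 52 with each array left out; 28 higher against 13 lower became 9 against 13 with arrays centred, 41 against 29 when also scaled, 22 against 19 with quantiles and 9 against 18 with the print-order trend removed. The 4 calls for treated hindlimb strains ranged from 0 (quantiles) to 21 (trend removed, 12 higher and 9 lower), and the 15 over both tissues from 1 (quantiles) to 23 (single probes). With each array left out, the strain counts ran from 1 (without the treated mdx hindlimb array at 9 weeks) to 16 (without the BL10 hindlimb array at 5 weeks) in hindlimb and from 4 (without the same mdx array) to 17 over both tissues; the lowest tissue count, 10, was without the mdx diaphragm array at 5 weeks. Arrays were matched across groups by age, which the model holds as a factor; the labels give the groups no other shared replicate number, so no further block was fitted.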
